A study of Mus musculus with 8 samples.

Results

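The genes for enzymes that add or remove histone methyl groups were followed in AML-12 cells, a mouse hepatocyte line. Those of the histone deacetylase and sirtuin families were followed with them. Members were chosen by symbol alone, with no measured value: the Kdm, Kmt, Setd, Ehmt, Hdac and Sirt families followed by a digit, and Ezh1, Ezh2, Suz12, Eed, Nsd1, Dot1l, Suv39h1 and Suv39h2. The rule found 62 of the 21983 gene symbols in the count table. By role they were 26 methyltransferase genes ("writers", with the Polycomb subunits Eed and Suz12 counted among them), 18 demethylase genes and 18 deacetylase genes. The last group held 11 zinc-dependent deacetylases and 7 sirtuins. They were placed there by family name, whether or not histones are their main substrate.

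The series compared 4 control libraries with 4 libraries of cells overexpressing Gm47544, a gene that the series title ties to the ubiquitination of APOC3. The controls were labelled wild type and carried pLKO.1, a lentiviral vector. The overexpression titles name the gene and no vector, and every library came from the same line, which was made from a mouse carrying a growth factor transgene. Separate cultures or clones are not named in the labels. The p-values thus reflect how far libraries of a group spread, and that spread may be technical. Gm47544 itself was not analysed here, and the labels could not be checked by it.

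Methyl groups on lysines of histones H3 and H4 are placed by enzymes with a SET domain and, on H3K79, by Dot1l. They are removed by flavin-dependent enzymes (Kdm1a and Kdm1b) and by the JmjC family, oxygen-dependent dioxygenases that use iron and 2-oxoglutarate. Methylation of H3K4 and H3K36 is known for active genes, methylation of H3K9 and H3K27 for silenced ones. Deacetylases either hold zinc in the active site (Hdac) or consume NAD (Sirt), and in liver both kinds are known for their part in lipid and glucose metabolism. Transcripts were measured here, not enzyme activity or histone marks, and in bulk RNA fewer cells of a type cannot be told apart from less RNA per cell.

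Libraries held from 11016907 to 18965662 counts. Values are given as CPM, the count scaled to a common library size with trimmed-mean factors, and fold changes are log2, overexpression minus control, with the standard error (SE). Genes were called higher or lower where edgeR's quasi-likelihood test, adjusted over the 11520 genes tested, gave an adjusted p below 0.05. The first principal component held 82.5% of the variance and set the groups apart. Control library 3 stood between them, at -22.2 against -60.7 to -49.98 for the other controls and 43.4 to 50.4 for overexpression, so results are also given without it. Hepatocyte markers summed to between 1899 and 2423 CPM in controls and between 1272 and 1322 CPM in overexpression libraries. Of 12 markers tested, 3 were higher and 3 lower. Ttr (log2 fold change -2.25), Serpina1a (-1.69) and Foxa2 (-0.39) fell, and Ttr carried the lower sum. Alb (3.58), Apob (0.76) and Fgb (2.89) rose. Apoa2 and Cyp2e1 were at or near 0 (at most 1 count in a group), and Hnf4a, a hepatocyte transcription factor, held 348 ± 23.7 CPM in controls (SD, n = 4) and 310.3 ± 4.51 in overexpression libraries (SD, n = 4). Cholangiocyte markers summed to between 2897 and 4287 CPM in controls and between 4614 and 5234 CPM with overexpression. Spp1 rose (log2 fold change 1.53) and carried the higher sum, while Krt19 (-0.41) and Sox9 (-0.66) fell. The part of these shifts in the results below was not tested.

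Of the 62 genes, 60 passed the filter on low counts. In overexpression libraries 24 members were higher and 8 lower, and 28 were not called. Over all genes tested, 32.3% were called higher and 32.1% lower, so 64.4% in all. The members therefore had a larger share of higher calls (40.0%) and a smaller share of lower calls (13.3%) than the background, and fewer calls in all. The 2 groups of libraries did not overlap for 22 members in the higher and 6 in the lower direction, 28 of 60, against 56.0% of all genes tested. Without control library 3, 29 members were higher and 17 lower, where the background was 38.7% in each direction (77.4% in all). All 32 calls made with it were made again. Because the control nearest to the overexpression libraries was the one left out, calls were favoured, and their return is no independent check.

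By class, demethylases had the highest median log2 fold change, 0.44, with 11 of 16 tested genes higher and 1 lower. Writers had a median of 0.18, with 11 of 26 higher and 5 lower. Deacetylases had a median of -0.02, with 2 of 18 higher and 2 lower, so 14 of 18 were not called. The median over all genes tested was 0.0004. Scaling by library totals alone gave 27 members higher and 6 lower (background 37.4% and 26.6%, 64.0% in all). It moved the median over all genes to 0.13 and the deacetylase median to 0.12, so no direction is read from the deacetylase median.

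**Figure D1:**
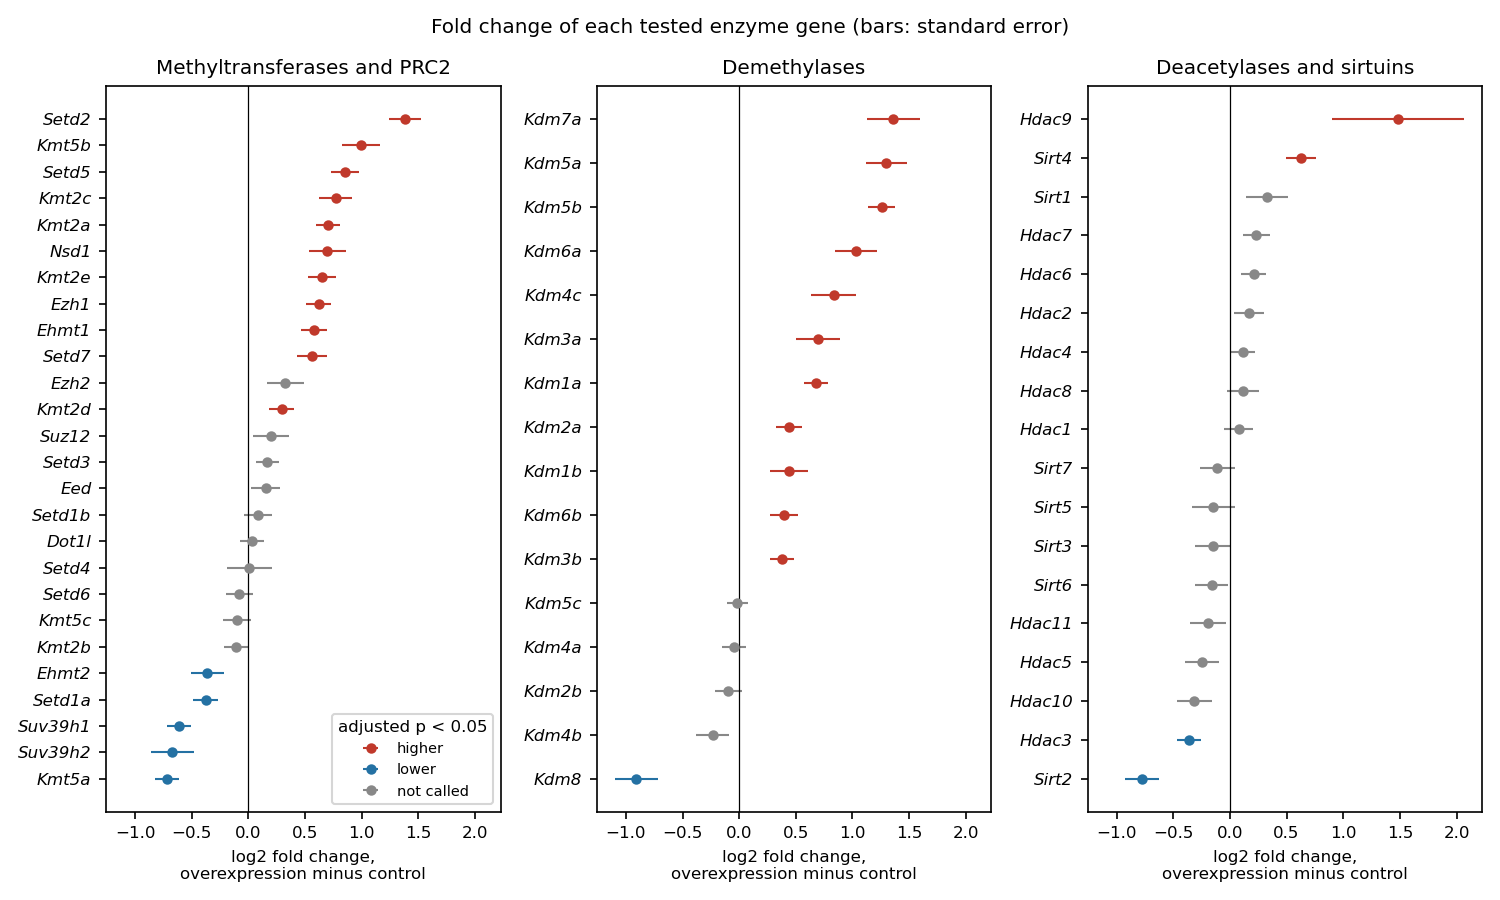
Log2 fold change (overexpression minus control, horizontal axis) of each tested member, in 3 panels by class, with bars for the standard error and colour for the call at an adjusted p below 0.05. In the demethylase panel 11 of 16 genes are called higher and Kdm8 is the one called lower, while 14 of 18 deacetylase genes are not called.

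As a level of each class per library, the median over its genes of the centred log2(CPM + 0.5) was taken. For demethylases it lay at -0.34, -0.33, -0.02 and -0.32 in controls 1 to 4 and between 0.21 and 0.26 in the overexpression libraries. Every overexpression library was above every control, and control library 3 was the control nearest to them. Writers lay at -0.22, -0.14, -0.01 and -0.19 in controls and between 0.07 and 0.18 with overexpression, in the same order. Deacetylases ran from -0.24 (control library 3) to 0.23 (control library 4) among the controls, a range that held all 4 overexpression libraries.

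**Figure D2:**
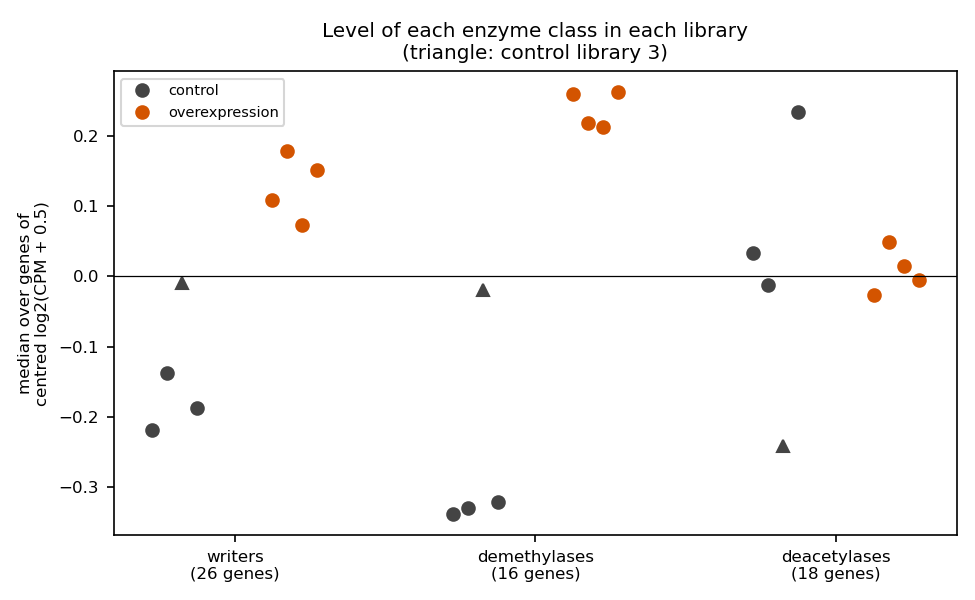
Median over the genes of a class of the centred log2(CPM + 0.5) in each library (vertical axis), with 1 point per library and a triangle for control library 3. Overexpression libraries lie above all controls for writers and demethylases, and inside the control range of -0.24 to 0.23 for deacetylases.

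RefSeq promoter windows (build GRCm38.p6) were matched to 50 of the 62 members, with 68 annotated starts. The 150 bases before the start are printed for members with a large change and a single start. These are 3 that rose (Setd2, Kdm7a, Kdm5b) and 2 that fell (Kdm8, Sirt2). The choice was also limited by the position of the window, which reached at most 30 bases into the annotated gene. It was limited by chromosome as well, so some members were left out whatever their change. The printed members are thus not simply those that changed most. The windows are given so that the regulatory sequence beside these changes can be read. They lie at chr9:110532447-110532596 (plus strand), chr6:39206774-39206923 (minus strand), chr1:134560028-134560177 (plus strand), chr7:125444470-125444619 (plus strand) and chr7:28766602-28766751 (plus strand). All are given 5′ to 3′ on the strand of the gene. Capitals mark GC boxes (GGGCGG, or CCGCCC on the other strand) and CCAAT boxes (CCAAT, or ATTGG on the other strand).
Setd2: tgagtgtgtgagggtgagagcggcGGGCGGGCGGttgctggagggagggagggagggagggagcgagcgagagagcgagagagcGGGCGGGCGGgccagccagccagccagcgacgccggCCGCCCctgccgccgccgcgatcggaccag
Kdm7a: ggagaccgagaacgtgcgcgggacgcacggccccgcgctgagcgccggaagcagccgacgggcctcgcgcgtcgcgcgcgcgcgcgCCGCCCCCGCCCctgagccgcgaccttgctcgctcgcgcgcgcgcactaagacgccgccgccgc
Kdm5b: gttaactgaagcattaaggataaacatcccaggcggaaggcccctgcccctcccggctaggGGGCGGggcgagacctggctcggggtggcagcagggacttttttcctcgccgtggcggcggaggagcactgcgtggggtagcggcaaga
Kdm8: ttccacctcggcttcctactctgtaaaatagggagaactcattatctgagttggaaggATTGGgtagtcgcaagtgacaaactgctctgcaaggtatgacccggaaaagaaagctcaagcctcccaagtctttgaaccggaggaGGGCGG
Sirt2: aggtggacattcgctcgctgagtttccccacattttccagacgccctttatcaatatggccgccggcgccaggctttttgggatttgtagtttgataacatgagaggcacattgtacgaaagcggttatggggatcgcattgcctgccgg
Setd2 held 5 GC boxes, Kdm7a 2 and Kdm5b 1, with no CCAAT box in any of these windows. Matches that share bases were each counted, so the 2 longer marked stretches of Setd2 gave 2 each. Kdm8 held 1 of each kind, and Sirt2 held neither. The share of G and C was 76.7% for Setd2, 81.3% for Kdm7a and 65.3% for Kdm5b, against 50% for Kdm8 and 52.0% for Sirt2.

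Over all member starts, 37 of 68 (54.4%) held a GC box in the 150 bases, against 28.6% of all 32851 starts. The share was 13 of 23 starts for members called higher, 9 of 11 for members called lower and 15 of 32 for those not called. A CCAAT box stood in 2 of 23 starts (8.7%) of members called higher, in 5 of 11 (45.5%) of members called lower and in 14 of 32 (43.8%) of those not called, against 24.5% of all starts. The median share of G and C was 64.7% at member starts and 54.0% at all starts. By call it was 62.0% for members called higher, 71.3% for those called lower and 64.7% for those not called. The order seen in the printed windows, with a larger share for the genes that rose, was thus not that of the lists. Some genes have several starts, which are counted singly, and a match is a description of the letters only.

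Among the writers, the H3K36 trimethylation enzyme Setd2 (chromosome 9, 110532597 to 110618633, plus strand, GRCm38), had the largest change. Its level was 49.1, 49.3, 74.5 and 51.1 CPM in controls 1 to 4 and 146, 143, 143 and 154 CPM in overexpression libraries 1 to 4. The groups were far apart, and control library 3 was the highest control. The log2 fold change was 1.38 (SE 0.14, edgeR adjusted p = 5.92e-06). The other genes placed with H3K36, Nsd1 and Setd5, also rose, but neither was called once the length trend, by which longer genes in general had higher fold changes, was removed (-0.06 and 0.06, edgeR adjusted p = 0.636 and 0.571). Nsd1, which places mono- and dimethyl groups there, had 42.3, 37.3, 66.4 and 45.1 CPM in controls and 81.5, 75.3, 71.6 and 81.3 CPM with overexpression. Its groups did not overlap, with control library 3 again nearest to the others, and the log2 fold change was 0.70 (SE 0.16, edgeR adjusted p = 0.00219). Setd5, a SET protein of disputed enzyme activity, rose by 0.85 (SE 0.12). It had 100, 93.3, 131 and 101 CPM in controls and 185, 195, 193 and 195 CPM with overexpression.

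The H4K20 enzymes divided. Kmt5b, which with Kmt5c places di- and trimethyl groups, had 60.1, 62.5, 106 and 61.8 CPM in controls and 146, 140.2, 150.2 and 143 CPM in overexpression libraries (log2 fold change 0.99, SE 0.17, edgeR adjusted p = 0.000269). Kmt5a, the monomethyltransferase whose product they extend, had 217, 235, 205 and 252 CPM in controls and 130.1, 143, 137 and 142 CPM with overexpression. The groups were apart for both genes, in opposite directions, and control library 3 was the control nearest to the overexpression libraries in each. Kmt5a fell by 0.72 on the log2 scale (SE 0.11, edgeR adjusted p = 8.27e-05). Kmt5c, at 43.4 ± 5.73 CPM in controls and 40.5 ± 1.29 CPM with overexpression (SD, n = 4 each), was not called. The ratio of Kmt5b to Kmt5a CPM, read only for its change between libraries, was 0.245 to 0.52 in controls and 0.984 to 1.12 with overexpression. Kmt5b is the longer gene (14.75 against 5.31 kb of exon), so the ratio also holds the length trend. With that trend removed the log2 fold changes were 0.34 for Kmt5b and -0.83 for Kmt5a, both still called.

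Of the 4 H3K9 writers, 3 were called lower (background 32.1%), and for Suv39h1 and Suv39h2 the call held in all 18 alternatives. Suv39h1 and Suv39h2 are paired enzymes that trimethylate H3K9 in heterochromatin. Suv39h1 had 67.2, 73.6, 71.3 and 73.1 CPM in controls and 50.1, 44.4, 49.6 and 43.0 CPM with overexpression. All controls were above all overexpression libraries, control library 3 lay within the other controls, and the gene fell by 0.61 (SE 0.11, edgeR adjusted p = 0.00029). Suv39h2 was expressed at a lower level, 6.01, 9.44, 10.3 and 7.76 CPM in controls and 4.54, 6.11, 4.97 and 5.44 CPM with overexpression. The lowest control was just under the highest overexpression library, and the log2 fold change was -0.67 (SE 0.19, edgeR adjusted p = 0.0072). Suv39h2 shares exonic bases with Dclre1c in the annotation.

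Ehmt1 and Ehmt2 encode the partners of the complex that places mono- and dimethyl groups on H3K9, and they moved apart. Ehmt1 rose by 0.58 (SE 0.11), from 75.4 ± 8.94 to 113 ± 3.21 CPM (SD, n = 4 each). Ehmt2 fell by 0.36 (SE 0.15, edgeR adjusted p = 0.0425), from 410.3 ± 86.8 to 319 ± 20.5 CPM (SD, n = 4 each). Its control library 3, at 299 CPM, was below all 4 overexpression libraries, and the call was made in 7 of 18 alternative analyses (adjusted p from 3.5e-05 to 0.49). The ratio of Ehmt1 to Ehmt2 CPM was 0.142 to 0.289 in controls and 0.334 to 0.369 with overexpression. Per kilobase of exon, Ehmt2 had the highest level of all 60 tested members in both groups, 74.8 and 58.2 CPM per kb.

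**Figure D3:**
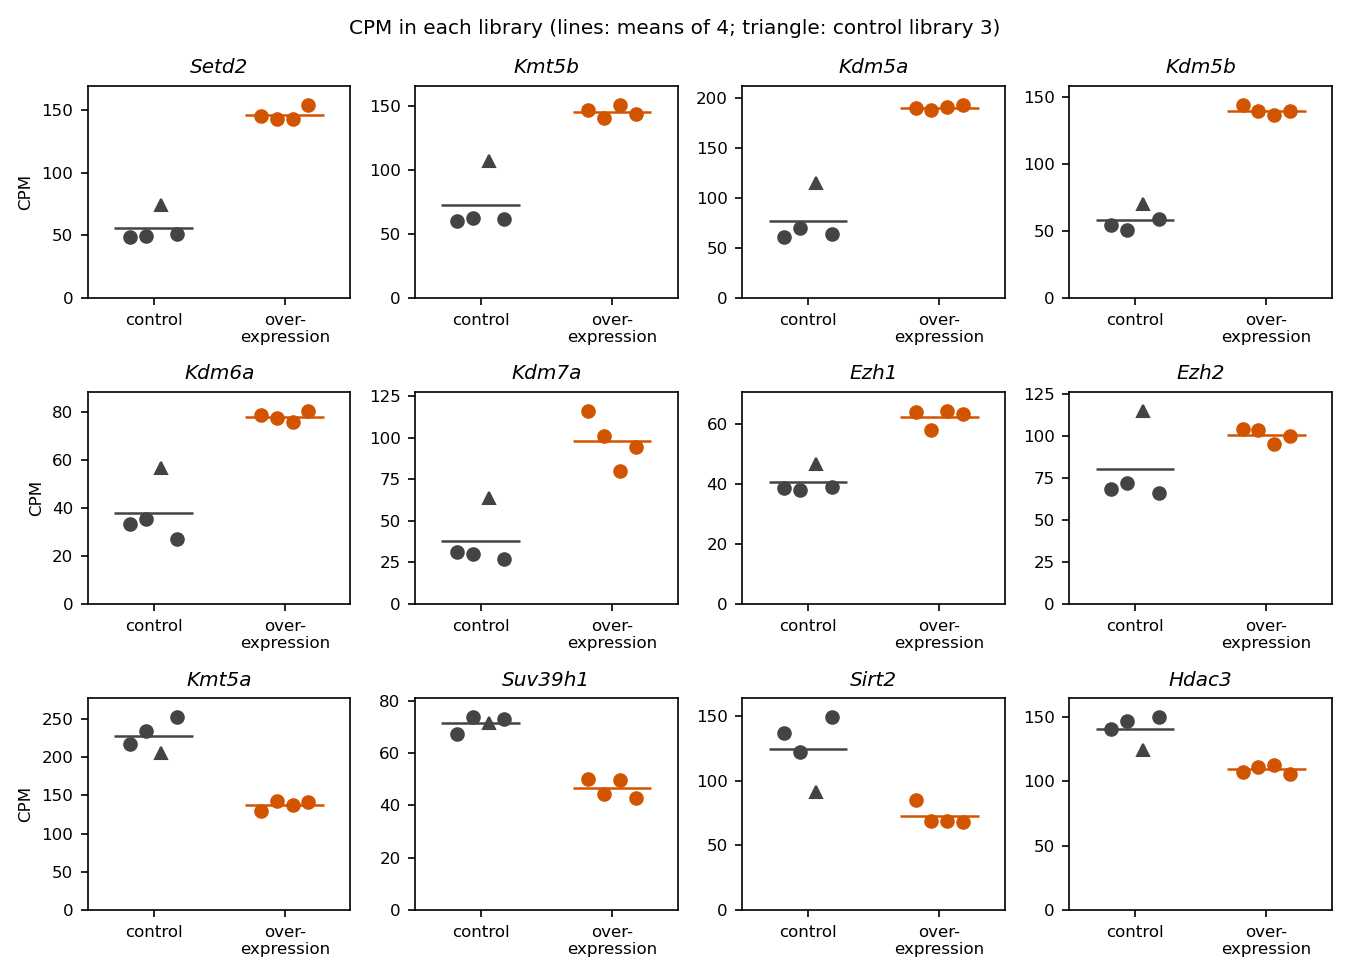
CPM (vertical axis, from 0) of 12 members in each of the 4 control and 4 overexpression libraries, with lines at the group means and a triangle for control library 3. Control library 3 lies nearest to the overexpression libraries for Setd2, Kmt5b, Kdm5a and Sirt2, and above them for Ezh2.

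In the H3K4 family, 5 of 8 members were higher and 1 lower (background 32.3% and 32.1%), and all 5 higher calls ended once the length trend was removed. Of the catalytic subunits of the large MLL complexes, 3 rose: Kmt2c by 0.77 (SE 0.15), Kmt2a by 0.70 (SE 0.11) and Kmt2d by 0.29 (SE 0.11, edgeR adjusted p = 0.0316). The call for Kmt2d was not made, or turned, in 9 of 18 alternatives, and with the length trend removed Kmt2d was called lower (-0.57, edgeR adjusted p = 0.00272). Kmt2e, a relative with no clear methyltransferase activity, rose by 0.65 (SE 0.12), and Setd7, a monomethyltransferase that also acts on other proteins, by 0.56 (SE 0.13). Kmt2b and Setd1b had log2 fold changes of -0.11 (SE 0.11) and 0.09 (SE 0.12) and were not called. Setd1a fell by 0.38 (SE 0.11, edgeR adjusted p = 0.00975). That call was not made with a trend on the share of G and C removed (-0.08, edgeR adjusted p = 0.479). It was also not made with scaling by library totals (-0.25, edgeR adjusted p = 0.0611). The symbol shares 3523 exonic bases on the same strand with Gm49388, which is counted as a separate gene, so the count of Setd1a is uncertain.

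Polycomb repressive complex 2 places methyl groups on H3K27 through Ezh1 or Ezh2, with Suz12 and Eed as core subunits. Ezh1 had 38.7, 37.9, 46.7 and 39.0 CPM in controls and 64.0, 58.1, 64.3 and 63.4 CPM with overexpression, with no overlap, and rose by 0.62 (SE 0.11, edgeR adjusted p = 0.000374). Ezh2 had 68.6, 72.0, 115 and 66.1 CPM in controls and 104, 104, 95.6 and 99.9 CPM with overexpression. Here control library 3 was above every overexpression library while the other controls were below all of them. The log2 fold change was 0.33 (SE 0.16, edgeR adjusted p = 0.0946) with all libraries and 0.52 (adjusted p = 6.79e-06) without control library 3.

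The core subunits followed the same layout. Suz12 had 135, 141, 209 and 113 CPM in controls and 176, 169.7, 165 and 174 CPM with overexpression, and Eed had 59.1, 55.0, 68.3 and 45.2 CPM in controls and 61.6, 60.7, 63.3 and 67.5 CPM with overexpression. Control library 3 was again above all overexpression libraries for both, and the other controls were below them. Neither was called with all libraries (log2 fold changes 0.20, SE 0.16, and 0.15, SE 0.13). Without control library 3 the values were 0.37 for Suz12 (edgeR adjusted p = 0.000642) and 0.23 for Eed (edgeR adjusted p = 0.0353). All 4 of the complex's genes were then called higher, where the background was 38.7% higher and 77.4% in all. This was not so in every fit. With all libraries and a trend on the share of G and C removed, Ezh1 stayed higher (0.74), and Ezh2 (0.015) and Eed (0.026) were not called. Suz12 was called lower there (-0.19, edgeR adjusted p = 0.0215).

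Dot1l, the H3K79 methyltransferase, was not called, at 102.6, 95.3, 91.0 and 115 CPM in controls against 106, 106, 103 and 97.6 CPM with overexpression. The overexpression libraries lay within the range of the controls, and the log2 fold change was 0.03 (SE 0.11). Its direction depended on the correction. Dot1l was called lower with the length trend removed (-0.36, edgeR adjusted p = 0.0262). It was called higher with a trend on the share of G and C removed (0.33, edgeR adjusted p = 0.00164) and lower with both removed (-0.15, edgeR adjusted p = 0.0397). Setd3, which methylates actin, Setd6, which acts on proteins other than histones, and Setd4 had log2 fold changes of 0.17, -0.08 and 0.01 and were not called. Those 3 genes belong to the SET family by name.

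Among the demethylases, both H3K4 enzymes of the Kdm5 family that rose did so by more than 2-fold. Kdm5a had 60.7, 70.1, 115 and 63.7 CPM in controls and 190.0, 188, 192 and 193 CPM with overexpression (log2 fold change 1.30, SE 0.18, edgeR adjusted p = 5.39e-05). Kdm5b had 54.8, 50.6, 69.7 and 58.6 CPM in controls and 144, 139, 136 and 139 CPM with overexpression (log2 fold change 1.26, SE 0.12, edgeR adjusted p = 3.16e-06). The overexpression libraries were close to each other and well above the highest control, library 3, for both genes.

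The X-linked relative Kdm5c was not called, at 162 ± 4.98 CPM in controls and 160.1 ± 6.42 CPM with overexpression (SD, n = 4 each), a log2 fold change of -0.02 (SE 0.10). Per kilobase of exon, Kdm5c had 22.8 CPM per kb in controls against 5.47 for Kdm5a and 3.53 for Kdm5b. With overexpression these levels were 22.5, 13.5 and 8.44 CPM per kb, so Kdm5c still had the highest of them. The Y-linked Kdm5d had no count in any library, which allows up to 0.0489 CPM over the controls and 0.0573 CPM over the overexpression libraries (3 counts over a group, counting error only).

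Kdm7a, which demethylates H3K9 and H3K27, had the largest change of its class. It had 31.2, 29.98, 63.5 and 27.3 CPM in controls and 116, 101, 79.8 and 94.4 CPM with overexpression. The groups were apart by the distance between control library 3 and overexpression library 3, and the log2 fold change was 1.36 (SE 0.24, edgeR adjusted p = 0.000304), or 1.70 without control library 3. Its relatives Kdm2a and Kdm2b act on H3K36. Kdm2a rose by 0.44 (SE 0.11), but was called lower with the length trend removed (-0.23, edgeR adjusted p = 0.0295). Kdm2b had a log2 fold change of -0.09 (SE 0.12) and was not called.

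The H3K27 demethylases Kdm6a and Kdm6b, which oppose Polycomb complex 2, both rose. Kdm6a had 33.5, 35.5, 56.9 and 27.0 CPM in controls and 79.0, 77.6, 75.9 and 80.5 CPM with overexpression (log2 fold change 1.03, SE 0.19, edgeR adjusted p = 0.000391). Kdm6b had 80.0, 80.7, 70.5 and 103 CPM in controls and 112, 111, 108 and 108 CPM with overexpression (log2 fold change 0.39, SE 0.12, edgeR adjusted p = 0.0133). The Kdm6b call was not made with the length trend removed (0.12, edgeR adjusted p = 0.457). Neither gene's groups overlapped, and control library 3 was the highest control for Kdm6a and the lowest for Kdm6b. The ratio of Kdm6a to Kdm6b CPM therefore overlapped, at 0.261 to 0.807 in controls and 0.699 to 0.748 with overexpression.

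The H3K9 demethylases Kdm3a and Kdm3b rose by 0.70 (SE 0.19) and 0.38 (SE 0.11). With the length trend removed Kdm3a stayed higher, at 0.39, and Kdm3b was called lower (-0.29, edgeR adjusted p = 0.0175). For Kdm3a, control library 3 held 116 CPM against 59.8 to 63.3 CPM in the other controls and 112 to 129 CPM with overexpression. In the Kdm4 family, which acts on H3K9 and H3K36, Kdm4c rose by 0.83 (SE 0.20). Kdm4a and Kdm4b had log2 fold changes of -0.05 (SE 0.11) and -0.23 (SE 0.14) and were not called, and Kdm4d had 2 counts in all controls and 5 in all overexpression libraries and was not tested.

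Both flavin-dependent demethylases rose. Kdm1a, the LSD1 enzyme of the CoREST complex, went from 81.6 ± 8.58 to 131 ± 5.26 CPM (SD, n = 4 each), a log2 fold change of 0.68 (SE 0.11). Kdm1b rose by 0.44 (SE 0.17, edgeR adjusted p = 0.0348), with overlapping groups and a call in 9 of 18 alternative analyses (adjusted p from 1.9e-05 to 0.23). The gene shares 505 exonic bases with Dek on the other strand in the annotation. Kdm5a, Kmt2e and Sirt2 likewise share exonic bases with a gene on the other strand (Ccdc77, Srpk2 and Nfkbib), and without a known strand setting the reads of such partners may not be told apart.

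Kdm8, a JmjC protein that is also known as a hydroxylase, was the one demethylase gene that fell. It had 8.05, 8.37, 6.31 and 11.1 CPM in controls and 5.06, 4.79, 4.01 and 4.10 CPM with overexpression. The groups did not overlap, with control library 3 the lowest control, and the gene fell by 0.91 (SE 0.19, edgeR adjusted p = 0.00118).

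Of the deacetylase genes, 4 of 18 were called. The class I enzymes Hdac1, Hdac2 and Hdac3 are the catalytic subunits of the Sin3, NuRD, CoREST and NCoR corepressor complexes. Hdac1 had 16.1, 16.5, 17.6 and 20.7 CPM in controls and 18.3, 19.7, 16.7 and 19.9 CPM with overexpression, in overlapping groups (log2 fold change 0.08, SE 0.13). Hdac2 had 169, 162, 192 and 119.8 CPM in controls and 179, 186, 175 and 184 CPM with overexpression (log2 fold change 0.17, SE 0.13). Control library 3 was the highest library of all for Hdac2 and control library 4 the lowest, and neither gene was called.

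Hdac3 had 141, 147, 124 and 149.9 CPM in controls and 107, 111, 113 and 106 CPM with overexpression. All controls lay above all overexpression libraries, and Hdac3 fell by 0.36 (SE 0.10, edgeR adjusted p = 0.00773). Per kilobase of exon, Hdac2 stood at 35.9 CPM per kb in controls and 40.5 with overexpression, against 34.6 and 27.0 for Hdac3 and 5.14 and 5.41 for Hdac1. Hdac8, the remaining class I gene, had a log2 fold change of 0.12 (SE 0.14).

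Class IIa deacetylases, which have weak activity of their own and bind MEF2 factors, were led by Hdac7, at 259 ± 37.2 CPM in controls and 304 ± 5.88 CPM with overexpression (SD, n = 4 each). Its groups did not overlap, but it was not called (log2 fold change 0.23, SE 0.12, edgeR adjusted p = 0.096). Hdac4 and Hdac5 had log2 fold changes of 0.12 (SE 0.11) and -0.25 (SE 0.15). Hdac9 was called higher (1.48, SE 0.58, edgeR adjusted p = 0.0396) on 23 counts in all controls and 60 in all overexpression libraries. It stood at 0.355 ± 0.342 and 1.07 ± 0.592 CPM (SD, n = 4 each), its groups overlapped, and the call was made in 8 of 17 alternatives (adjusted p from 0.00041 to 0.28). Hdac6, Hdac10 and Hdac11 had log2 fold changes of 0.21, -0.31 and -0.19 and were not called.

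Of the 7 sirtuins, 1 rose and 1 fell. Sirt2, a mainly cytoplasmic enzyme that acts on tubulin and histone H4, had 137, 122, 91.0 and 149 CPM in controls and 85.3, 69.0, 68.7 and 68.1 CPM with overexpression. Control library 3 was the lowest control and overexpression library 1 the highest of its group, and these nearly met. Sirt2 fell by 0.78 (SE 0.15, edgeR adjusted p = 0.000642). The mitochondrial Sirt4 had 16.2, 13.7, 13.2 and 14.1 CPM in controls and 21.3, 18.95, 25.7 and 22.3 CPM with overexpression, without overlap, and rose by 0.63 (SE 0.13, edgeR adjusted p = 0.00134).

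Sirt1, a nuclear deacetylase studied in liver for its part in fasting metabolism, had 7.08, 7.99, 9.12 and 4.99 CPM in controls and 8.06, 10.6, 9.33 and 8.79 CPM with overexpression. These groups overlapped, and the log2 fold change was 0.33 (SE 0.18, edgeR adjusted p = 0.132). Sirt3, Sirt5, Sirt6 and Sirt7 had log2 fold changes between -0.16 and -0.11 and were not called. Without control library 3, Sirt1 was called higher and Sirt5, Sirt6 and Sirt7 lower, with log2 fold changes of 0.43, -0.34, -0.28 and -0.27.

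For most called members, control library 3 was the control nearest to the overexpression level. It was the highest control for 21 of the 24 members called higher and the lowest control for 5 of the 8 called lower. Leaving it out raised the demethylase median to 0.57 and the writer median to 0.24. In the deacetylase class the calls went from 2 higher and 2 lower to 4 higher and 8 lower of 18, where the background without that library was 38.7% in each direction.

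Fold changes ran with gene length. Many members are long genes: the median exonic length was 7.78 kb for writers, 7.67 kb for demethylases and 5.09 kb for deacetylases, against 4.46 kb over all genes tested. All matched genes were split by exonic length into 5 bins of about equal size. Their median log2 fold change went from -0.53 in the shortest bin to 0.49 in the longest. Of the members, 24 fell in the longest bin (7.64 to 123.18 kb), where 18 were higher and 6 not called, with a median of 0.67. The background there was 59.5% of genes higher and 11.1% lower. The correlation of fold change with exonic length (Spearman) was 0.60 over the 60 members, 0.70 over the 26 writers, 0.53 over the 16 demethylases, 0.26 over the 18 deacetylases and 0.41 over all matched genes. Genes share their libraries and are not independent replicates, so these are descriptions. With the share of G and C in the transcript the correlation was -0.50 over the members, -0.85 over the demethylases and -0.34 over all matched genes.

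**Figure D4:**
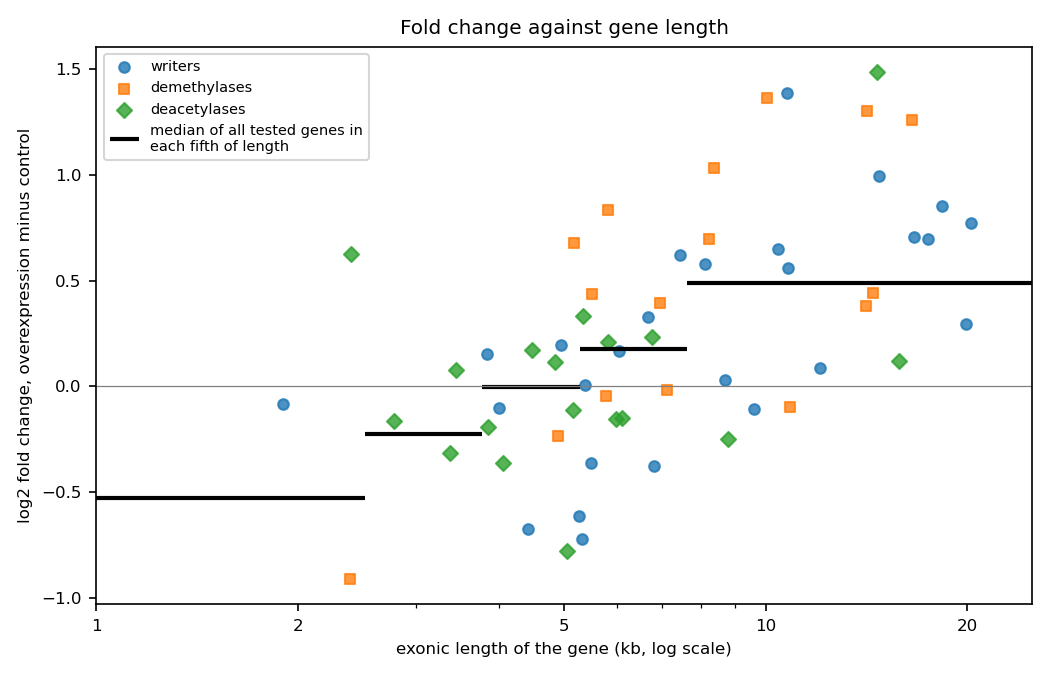
Log2 fold change (overexpression minus control) of the 60 tested members against exonic length in kb on a log scale, with black lines for the median over all tested genes in each of 5 bins of length. The lines go from -0.53 in the shortest bin to 0.49 in the longest, and members above 7.64 kb lie mostly around or above the last line.

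With the trend on length over all genes removed from every library, 13 members were higher and 18 lower, against a background of 29.6% and 31.1% (60.6% in all). The demethylase median was 0.22 (7 higher, 5 lower), the writer median -0.05 (5 higher, 9 lower) and the deacetylase median -0.07 (1 higher, 4 lower). All 8 members called lower kept that call. Of the 24 called higher, 12 kept it: the writers Setd2 (0.90), Kmt5b (0.34), Ezh1 (0.33) and Ehmt1 (0.25), the demethylases Kdm7a (0.94), Kdm6a (0.70), Kdm4c (0.69), Kdm5a (0.67), Kdm1a (0.59), Kdm5b (0.51) and Kdm3a (0.39), and Sirt4 (0.97). Another 9 were no longer called, among them Setd5 (0.06), Nsd1 (-0.06), Kmt2a (-0.05), Kmt2c (-0.06), Kmt2e (0.17) and Setd7 (0.07). Kdm2a, Kdm3b and Kmt2d were called lower instead, at -0.23, -0.29 and -0.57. The H3K4 family went from 5 higher and 1 lower to 4 lower and 4 not called, while the H3K9 family stayed at 1 higher and 3 lower.

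**Figure D5:**
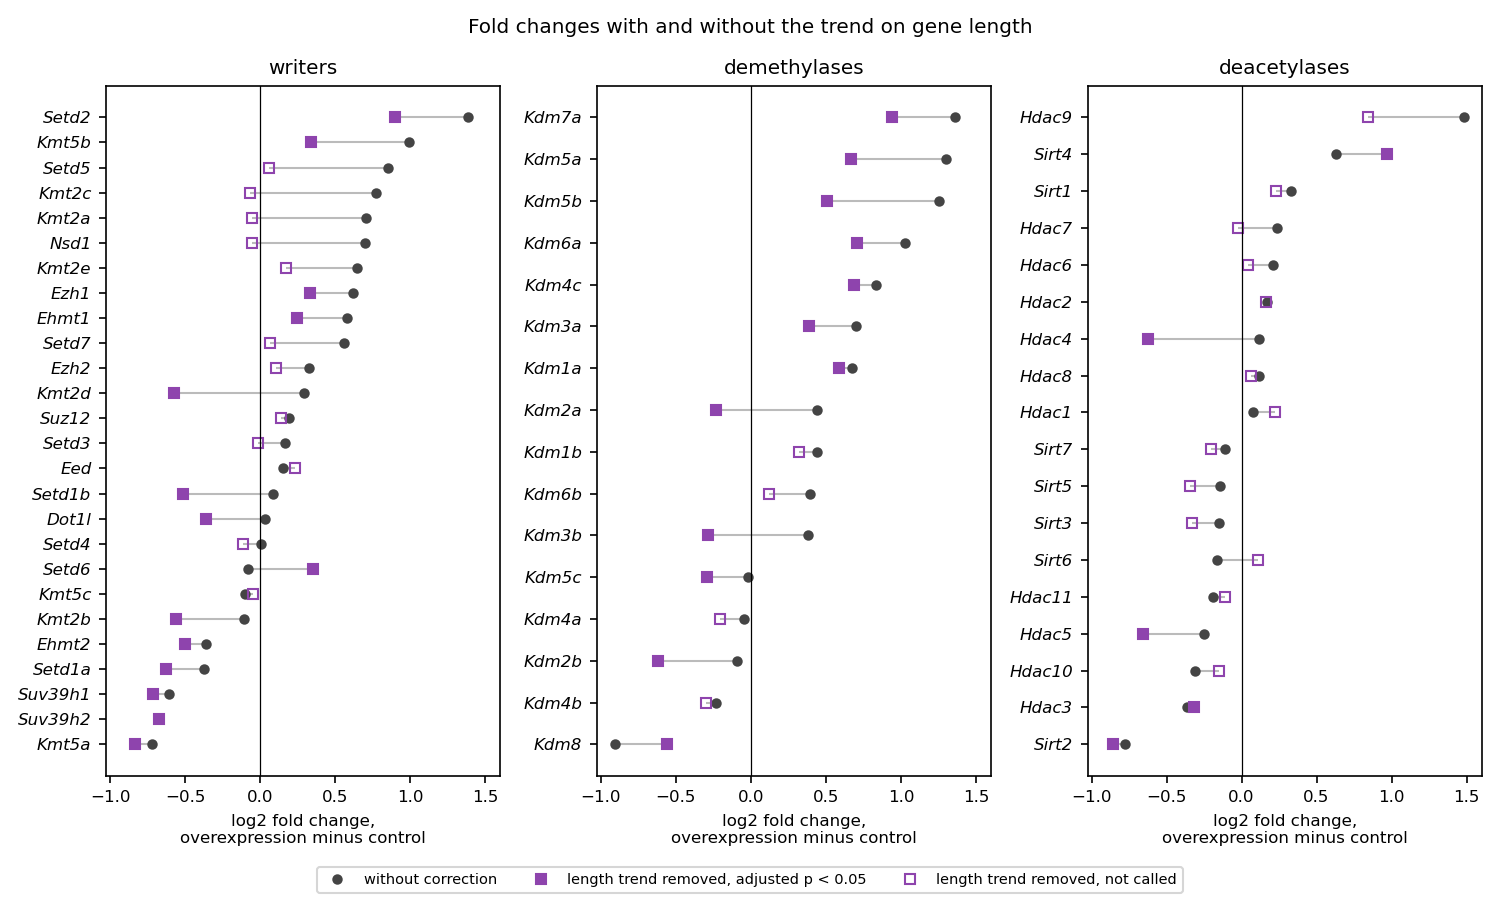
Log2 fold change of each tested member (horizontal axis) without correction (grey circles) and after removal of the length trend (purple squares, filled where the adjusted p is below 0.05), by class. The long genes Kmt2d, Kmt2c, Kmt2a and Nsd1 move from above 0 to below it, while Setd2 (0.90) and Kdm7a (0.94) stay well above 0.

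Removing a trend on the share of G and C after the one on length gave 17 members higher and 16 lower, where the background was 34.7% and 33.8% (68.5% in all). Removing the trend on G and C alone gave 32 higher and 8 lower, with a background of 35.9% and 35.5% (71.4% in all). After both removals the demethylase median was 0.18 and the writer median -0.10. Of the 32 calls, 18 were made in the same direction in each of 18 alternative analyses. They are the writers Setd2, Kmt5b, Ezh1, Ehmt1, Kmt5a, Suv39h1 and Suv39h2, the demethylases Kdm7a, Kdm5a, Kdm5b, Kdm6a, Kdm4c, Kdm1a, Kdm3a and Kdm8, and the deacetylases Sirt2, Sirt4 and Hdac3.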

How the data were processed

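RNA-seq of 8 AML-12 libraries was deposited by the authors as 1 table of raw counts per gene symbol, all whole and not normalized. FastQC, STAR, HTSeq and mm10 are named per the submitters' processing notes. For tool versions, annotation and strand, nothing is given in these sources. Groups and replicate numbers came from the sample titles.

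Tests were run with edgeR 4.0.16 in R 4.3.3 (filterByExpr with a minimum count of 10, trimmed-mean scaling, two-sided quasi-likelihood test on group alone, Benjamini-Hochberg adjustment over 11520 genes, called at 0.05). The SE is the fold change (log2) over the root of F. The common biological coefficient of variation was 0.15. On simulated counts for the same group sizes (11453 genes), 44% of 1.5-fold, 94% of 2-fold and 100% of 4-fold and 8-fold changes were recovered, with 7 false among 176 calls. Only 50 genes were changed at each fold, and counts were drawn for each gene on its own. The simulation thus held no length trend and no library between the groups, and its rates may not carry over to these data. Lengths, overlaps and the share of G and C came from GENCODE M21 (GRCm38, which is mm10), which matched all 62 members. The share of G and C was that of the longest transcript. Length and G and C trends were removed per library as offsets from a lowess fit (span 0.3).

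The symbol rule for the members uses no measured value, but the rule and the gene lists were proposed with earlier results of these data known, so no list is tested. Values per library are given for up to 4 called members with the largest change per class, at a mean of at least 1 CPM. They are also given for the 4 genes of Polycomb complex 2, Setd2, Dot1l, Nsd1, Kdm6a, Kdm6b, Hdac1, Hdac2, Hdac3 and Sirt1. Outside this rule, Kmt5a, Suv39h1, Suv39h2 and Kdm8 are given in the same way. From each other list, up to 2 called genes with the smallest p are named. A transcription elongation gene, listed in error as a Polycomb partner, was dropped. Alternatives were other scalings and filters, DESeq2 1.42.0, limma 3.58.1 (voom with quality weights), a replicate block, the trend removals and leaving out each library. Removing length and then G and C was added after seeing the data. No library pair of a group agreed within counting noise (chi-square per gene 2.41 to 102). Same-numbered libraries did not deviate together (correlations -0.12 to 0.02), so the numbers were not taken to pair them.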

Additional observations from a re-analysis of the deposited data

Results flagged for a closer look

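In 12 of 120 groups of 4 libraries (60 members in each of 2 groups), 1 library lay apart from the other 3 by Dixon's ratio at its 95% critical value, where chance gives about 1 in 20 groups. In 10 of the 12 it was control library 3 at the high end. Its level was 74.5 CPM for Setd2 (others 49.1 to 51.1), 106 CPM for Kmt5b (60.1 to 62.5), 38.3 CPM for Kmt2c (24.7 to 26.2) and 73.9 CPM for Setd7 (50.6 to 53.1). For the Polycomb enzymes it was 46.7 CPM for Ezh1 (37.9 to 39.0) and 115 CPM for Ezh2 (66.1 to 72.0). Among demethylases it was 302 CPM for Kdm2a (229 to 239.8), 116 CPM for Kdm3a (59.8 to 63.3), 28.4 CPM for Kdm4c (14.1 to 15.8) and 63.5 CPM for Kdm7a (27.3 to 31.2).

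In the overexpression group, library 2 was low for Ezh1, at 58.1 CPM against 63.4 to 64.3 CPM. Library 1 was high for Sirt2, at 85.3 CPM against 68.1 to 69.0 CPM. Neither value overlapped the controls of its gene.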

How the results depend on the processing

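Depth limits the low members: Hdac9 (23 and 60 counts in the groups), Kdm4d and Kdm5d. Removing the length trend moved the count of members called higher from 24 to 13 and of those called lower from 8 to 18, and removing both trends moved the latter to 16. Without control replicate 3 it was 17, and over the fits that leave out 1 library the counts ran from 21 to 29 higher and from 7 to 17 lower. The writer median (0.18) became 0.30 with library totals, 0.27 with voom, -0.05 without the length trend, 0.27 without the trend on G and C and -0.10 without both. The demethylase median (0.44) became 0.56 with library totals, 0.56 with voom, 0.22 without the length trend and 0.18 without both, and ran from 0.39 to 0.57 over the fits without 1 library. The cause of these moves was not tested. A fit with the replicate number as a block gave 23 members higher and 7 lower, with writer and demethylase medians of 0.20 and 0.46, and lost the calls of Ehmt2 and Kmt2d.

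Log2 fold changes of some members changed sign. The members called with all libraries among them were Kdm2a, Kdm3b, Kmt2a, Kmt2c, Kmt2d and Nsd1, and the others were not called there. With the length trend removed they were Dot1l -0.36, Hdac4 -0.62, Hdac7 -0.022, Kdm2a -0.23, Kdm3b -0.29, Kmt2a -0.055, Kmt2c -0.064, Kmt2d -0.57, Nsd1 -0.057, Setd1b -0.51, Setd3 -0.012, Setd4 -0.11, Setd6 0.35 and Sirt6 0.11. With the trend on G and C removed they were Hdac10 0.003, Hdac11 0.14, Hdac2 -0.23, Hdac5 0.06, Hdac8 -0.29, Kdm2b 0.11, Kdm4a 0.20, Kdm4b 0.078, Kdm5c 0.19, Kmt2b 0.19, Kmt5c 0.19, Setd3 -0.076, Setd6 0.19, Sirt1 -0.006, Sirt6 0.15, Sirt7 0.21 and Suz12 -0.19. With both trends removed they were Dot1l -0.15, Ezh2 -0.10, Hdac10 0.07, Hdac11 0.11, Hdac2 -0.086, Hdac4 -0.45, Hdac8 -0.20, Kdm2a -0.25, Kdm3b -0.10, Kmt2c -0.12, Kmt2d -0.38, Kmt5c 0.11, Nsd1 -0.17, Setd1b -0.33, Setd3 -0.15, Setd6 0.53, Sirt6 0.29, Sirt7 0.03 and Suz12 -0.10. With scaling by library totals they were Kdm2b 0.035, Kdm4a 0.083, Kdm5c 0.11, Kmt2b 0.027, Kmt5c 0.033, Setd6 0.043 and Sirt7 0.027. Setd4, at 0.01 with all libraries, was -0.005 with median-ratio scaling, -0.019 with no filter, -0.022 with DESeq2 and -0.12 with voom. Over the fits that leave out 1 library, the log2 fold change ran from -0.043 to 0.096 for Dot1l, from -0.057 to 0.0 for Kdm5c, from -0.005 to 0.16 for Setd1b, from -0.16 to 0.089 for Setd4 and from -0.34 to 0.018 for Sirt5. Each of these was lowest without control replicate 3.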

Other observations

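Other chromatin genes were read from the same test. Of 16 acetyltransferase genes tested, 9 were called higher and 2 lower (median log2 fold change 0.51, or 0.04 with the length trend removed). Kat6b, a MYST-family acetyltransferase, went from 22.9 ± 4.97 to 45.3 ± 1.86 CPM (SD, n = 4 each), and Hat1, which acetylates newly made histones, from 85.5 ± 18.2 to 42.5 ± 2.69 CPM (SD, n = 4 each). Removing the length trend took Kat6b from 0.98 to 0.24 on the log2 scale. Of 10 COMPASS partners, which serve the H3K4 writers, 3 were higher and 5 lower. Dpy30, a core subunit, fell by 1.09 (SE 0.13), or by 0.38 with the length trend removed, and Wdr82 rose by 0.60 (SE 0.14). Of 7 partners of Polycomb complex 2, 2 were higher and 1 lower. Phf19, which binds methylated H3K36, went from 6.91 ± 0.594 to 1.99 ± 0.494 CPM (SD, n = 4 each), and Jarid2 rose by 0.88 (SE 0.14). With the length trend removed their log2 fold changes were -1.83 and 0.45.

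Of 24 corepressor subunits that carry deacetylases, 8 were higher and 4 lower. Within the Sin3 complex, the scaffold Sin3a rose by 1.05 (SE 0.12) and Sap30 fell by 1.06 (SE 0.12). With the length trend removed these were 0.94 and -0.37. Of 18 PRC1 genes 6 were higher and 5 lower, with Phc3 (log2 fold change 1.26) and Rybp (0.87) among the higher. Of 7 DNA methylation genes 4 were higher and 2 lower. Uhrf1, which recruits the maintenance methyltransferase, went from 153 ± 15.3 to 68.2 ± 2.46 CPM (SD, n = 4 each), and Tet2, a dioxygenase that oxidises methylcytosine, from 12.4 ± 3.85 to 35.5 ± 3.47 CPM (SD, n = 4 each). Of 20 methyltransferase genes outside the symbol rule, 7 were higher and 9 lower, and of 8 further JmjC genes 3 were higher and 1 lower. Jmjd1c, a relative of Kdm3a, had a log2 fold change of 1.54 (SE 0.22), and Jmjd6 one of -1.14 (SE 0.13). Removing the length trend took Tet2 from 1.51 to 0.79, Jmjd1c to 0.81 and Phc3 to 0.51. Rybp was then at 0.84, Uhrf1 at -1.15 and Jmjd6 at -1.17. The background over all genes was 32.3% higher and 32.1% lower, and these lists were not tested as lists.

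Markers of other liver cell types were also summed. Stellate cell and fibroblast markers lay between 3.56 and 5.47 CPM in controls and between 9.86 and 17.5 CPM with overexpression, with Des the main contributor (3.95 and 11.3 CPM on average) and Col1a2, Col3a1, Lrat and Lum at 0. Endothelial markers lay between 0.125 and 0.536 CPM and between 1.37 and 2.18 CPM, mainly through Cdh5 (0.117 and 1.29 CPM). Immune markers lay between 26.7 and 32.7 CPM and between 9.94 and 13.2 CPM, mainly through Csf1r (27.1 and 10.2 CPM), with Adgre1, Clec4f and Cd3e at 0.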
